A study of Mus musculus with 9 samples.

Results

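The genes described here are the well-expressed non-coding RNA genes of the mouse liver: 91 genes that the deposited tables mark as non-coding and that reached 5 FPKM (reads scaled to gene length and to the library's total) in at least 3 of 9 liver libraries. They were drawn from 16266 genes present in both tables, of which 1941 were marked non-coding. Protein-coding genes that met the same FPKM rule numbered 5830. The members were selected on measured FPKM values of these same livers, so their level is a description and not a finding.

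The study sequenced total liver RNA in 3 groups of 3 samples, from mice given a virus by tail-vein injection and then fed a control or an ethanol diet. All mice were wild type and all received an AAV8 vector whose TBG promoter restricts expression to hepatocytes and whose transcript carries a 3×FLAG tag and a WPRE element. The first group received the control vector (AAV8-TBG-MCS-3×FLAG-WPRE) and was pair-fed the control diet. The second received the same control vector and was fed ethanol. The third received AAV8-TBG-Mettl3-3×FLAG-WPRE and was fed ethanol; Mettl3 is the catalytic subunit of the nuclear complex that writes N6-methyladenosine (m6A) on RNA. The diets were started 3 weeks after the virus, were kept for 10 days and ended with 1 binge dose of ethanol, or of maltose for pair-fed mice. The labels call the control-virus livers WT and the others Mettl3 overexpression; in the deposited tables the former are the Ctrl columns. There was no pair-fed group with the Mettl3 vector, so the virus effect can be read under ethanol feeding and nowhere else. Sex and age are not given in the sources used here. The labels number the samples of a group but do not say whether each is a separate animal, so p-values measure the spread between these samples.

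Long non-coding RNAs are transcribed and processed much as mRNAs are, but act as RNA or serve as precursors. Some build nuclear bodies, some carry small nucleolar RNAs (snoRNAs, which guide the modification of ribosomal RNA) or microRNAs in their introns and exons, and some arise from the start region of a coding gene on the other strand. Many of those seen in liver have a catalogue name alone, Gm for a predicted gene model and Rik for a cloned cDNA, and no assigned role.

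The FPKM values resolved into whole reads, from 34656256 to 38159563 reads on genes per library. Mettl3 itself checked the labels, at 3.78 to 5.44 FPKM in the ethanol-fed livers with control virus and 25.0 to 38.5 FPKM in those with the Mettl3 virus (log2 difference 2.54 ± 0.19 SE, limma adjusted p = 0.0257). Of 7 hepatocyte markers 2 were called higher with ethanol (Fgb and Cps1) and none lower, beside 10.0% and 26.0% of all genes tested. The summed levels of these markers overlapped between all groups. One ethanol-fed control liver, number 1, and one Mettl3 liver, number 3, stood apart from the other 2 of their groups in many genes; their part is given beside the results it touches.

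By name, 40 of the 91 genes were predicted Gm genes and 25 were Rik genes. A further 9 were snoRNA host genes, 8 were named long non-coding RNAs, 5 had symbols that mark an antisense or overlapping transcript, 3 had other clone names, and 1 was named as a microRNA host. No gene for a small RNA itself passed the rule. The gene lengths implied by the FPKM values ran from 105 to 20775 bases with a median of 1042. In 36 genes every one of the 9 livers reached 5 FPKM. In 29 genes the level was reached by all 3 livers of the pair-fed group and of no other group, and in 10 no group reached it in all of its livers.

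At the edge of the rule, the third-highest FPKM was 5.13 in Gm19696, 5.18 in Gm20684, 5.22 in 2010320M18Rik, 5.35 in Gm52736 and 5.502 in Snhg5. Just outside it were Fam120aos at 4.98, Gm3734 at 4.95, Gm32542 at 4.93, Gm16124 at 4.76 and Gm48199 at 4.68.

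The most abundant member was Gm26917, a predicted gene on chromosome 17. It had 583, 666 and 586 FPKM in pair-fed livers 1, 2 and 3, 183, 569 and 671 in the ethanol-fed livers, and 611, 608 and 532 in the Mettl3 livers. Ethanol-fed liver 1 alone was low, and the other 8 livers lay close together. GENCODE M21 places the gene at chr17:39843013-39846341 on the plus strand, 12 bases from a gene annotated as ribosomal RNA on the other strand, and the length implied by the FPKM values (5792 bases) exceeds that span of 3329 bases. Whether ribosomal RNA reads were counted in Gm26917 was not tested. Next in level came BC024386, AW112010, Gas5, 0610005C13Rik, Xist, Gm10768, Gm20319, Gm8883 and Malat1, with means over the 9 livers far below that of Gm26917.

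Together the 91 genes took 0.689% ± 0.032 (SD, n = 3) of the reads in pair-fed livers, 0.557% ± 0.092 in ethanol-fed control livers and 0.580% ± 0.007 in Mettl3 livers. Pair-fed livers did not overlap either other group, and the 2 ethanol-fed groups overlapped. Without Gm26917 the shares were 0.335%, 0.283% and 0.241%, and the pair-fed and ethanol-fed control livers then overlapped. These shares are a description with no test, since the same livers chose the members: 24 of the 91 would not meet the rule without the pair-fed livers.

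Of the 90 genes that could be placed on GRCm38, 28 overlapped a protein-coding gene on the opposite strand and 5 on the same strand. A further 2, Gm41999 and Gm46635, overlapped one but had no strand in the annotation used. Exons were compared only for members that GENCODE M21 lists under the same symbol. Of these, 20 had an exon that shared bases with a coding exon. Overlapping members not listed there, such as Gm10768, Gm38467 and Gm41963, were not compared. Whether the counting used strand is not given in the sources used here, so reads of pairs that share exon bases cannot be told apart. A total of 17 started within 1 kb of the start of their nearest coding gene. Annotated snoRNA genes lay inside 12 members, and microRNA hairpins of RefSeq's table lay on the same strand inside 3. One of the snoRNA genes, in Gas5, carries the microRNA name Mir5117.

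The 3 members that hold such hairpins are Mir22hg, Dleu2 and E130102H24Rik. RefSeq (GRCm38.p6) gives the mature sequences below, shown because they are the products these transcripts are known to be cut into; capitals mark the seed, bases 2 to 8, which pairs with targets. Mature microRNAs were not measured in these libraries.
Mir22hg, mmu-miR-22-3p, chr11:75463772-75463793, plus strand: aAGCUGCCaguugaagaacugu
Mir22hg, mmu-miR-22-5p, chr11:75463734-75463755, plus strand: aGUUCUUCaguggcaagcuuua
Dleu2, mmu-miR-15a-5p, chr14:61632075-61632096, minus strand: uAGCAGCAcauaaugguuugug
Dleu2, mmu-miR-16-5p, chr14:61631936-61631957, minus strand: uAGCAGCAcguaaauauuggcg
E130102H24Rik, mmu-miR-101a-3p, chr4:101346957-101346977, minus strand: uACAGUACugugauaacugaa
The 2 microRNAs of Dleu2 share the seed AGCAGCA, and those of the other hosts have different seeds.

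Ethanol feeding in mice with control virus was the first comparison. Adjusted p-values were taken from one limma fit over all 10064 genes tested, and a gene is called here when its adjusted p was under 0.05. Because membership used these same livers, a p is given for the 44 members that reached 5 FPKM in all 3 Mettl3 livers and so belonged whatever the compared livers showed. Another 46 are given by their values alone, and Gm39247 fell below the FPKM minimum of the test.

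More of these RNAs were called lower with ethanol than higher. Of the 44 tested, 17 were called lower (38.6%) and 6 higher (13.6%), while 21 were not called. The background over all genes tested was 26.0% lower and 10.0% higher, and among 4673 coding genes held to the same 2 level rules it was 26.4% lower and 12.9% higher. The median log2 fold change was -0.31 over the 44 tested members, -0.12 over those coding genes and -0.14 over all genes. Scaling each library by the median ratio to the others, in place of total reads, moved the median of all genes by 0.15 and changed the calls over all genes from 1009 higher and 2616 lower to 1773 higher and 1680 lower. The members' calls then stood at 9 higher and 14 lower, with 20 of the 23 calls in common. Oip5os1, Snhg8 and Gm41963 lost theirs, and Gm27216, Urml and 4732465J04Rik were newly called higher. The count of lower calls was 11 when any one pair-fed liver or ethanol-fed liver 2 was left out, and 21 without ethanol-fed liver 1.

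**Figure D1:**
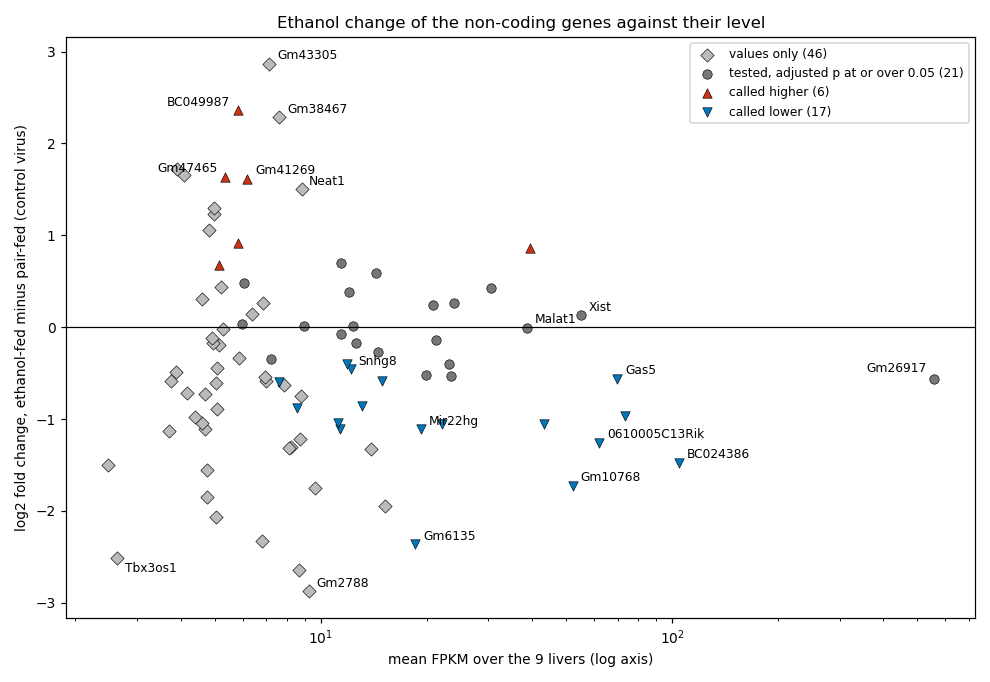
Log2 fold change of each member but Gm39247 (which was under the FPKM filter of this comparison) between ethanol-fed and pair-fed livers with control virus (vertical axis) against its mean FPKM over the 9 livers (log axis); markers separate called, not called and untested members. Among 44 tested members 17 lie below zero and were called lower, 6 lie above and were called higher, and the most abundant gene, Gm26917, was not called.

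The strongest fall with a test was that of Gm6135, a predicted gene on chromosome 3. Its FPKM was 44.0, 23.6 and 52.0 when pair-fed, against 7.15, 4.62 and 8.46 in the ethanol-fed control livers, with no overlap. That is a log2 fold change of -2.36 ± 0.31 (SE, limma adjusted p = 0.0024). The Mettl3 livers lay near the ethanol-fed ones, at 8.64, 6.79 and 11.9 FPKM.

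Gm10768 followed, with 83.9, 110 and 118 FPKM when pair-fed, against 37.96, 26.0 and 28.3 in ethanol-fed control livers. Its log2 fold change was -1.73 ± 0.18 (adjusted p = 0.0012). It overlaps Abcc2 on the same strand, at chr19:43838803-43840845; Abcc2 encodes the pump that exports conjugated organic anions into bile, and fell from a mean of 124 to 47.3 FPKM (log2 fold change -1.37 ± 0.19, adjusted p = 0.0031). Reads from unspliced Abcc2 RNA and from Gm10768 cannot be told apart.

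BC024386, at chr7:140906021-140907983, was the second most abundant member in pair-fed livers. It fell from 191, 180 and 198 FPKM to 94.6, 55.0 and 58.5 (log2 fold change -1.48 ± 0.20, adjusted p = 0.0026). The Rik gene 0610005C13Rik fell from 87.3, 99.4 and 111 FPKM to 48.3, 30.3 and 46.4 (log2 fold change -1.26 ± 0.19, adjusted p = 0.0038). Groups did not overlap in either gene. 0610005C13Rik overlaps Bcat2, the mitochondrial branched-chain aminotransferase gene, on the other strand with 247 bases of shared exon, and Bcat2 fell as well (log2 fold change -0.77, adjusted p = 0.0043).

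1810019D21Rik, which overlaps the splicing regulator gene Esrp2 on the other strand, fell with a log2 fold change of -1.11 ± 0.12 (adjusted p = 0.0014). Esrp2 shares 119 exon bases with it and was called lower as well (log2 fold change -0.38, limma adjusted p = 0.028). Smaller falls were called in 1810008I18Rik (-1.06), Gm20319 (-1.05), Gm12909 (-1.05), Gm41963 (-0.88), C730014E05Rik (-0.86), 5033421B08Rik (-0.60) and Hectd2os (-0.58). Gm41963 overlaps Cfhr2 on the same strand, and Cfhr2 was called lower too (-0.53, limma adjusted p = 0.038). Oip5os1, the RNA also known as Cyrano that triggers decay of miR-7, fell by 0.40 on the log2 scale (adjusted p = 0.031). A set of 9 genes kept a lower call whichever single liver was left out: BC024386, AW112010, 0610005C13Rik, Gm10768, Mir22hg, Gm6135, C730014E05Rik, 1810019D21Rik and Gm12909.

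AW112010, an RNA known from interferon-stimulated immune cells, fell from 124, 110 and 110 FPKM in pair-fed livers to 68.2, 57.5 and 49.9 in ethanol-fed control livers (log2 fold change -0.97 ± 0.13, adjusted p = 0.0025). The Kupffer cell markers moved the same way: 8 of 10 were called lower, and their summed FPKM was 311 to 354 in pair-fed, 170 to 251 in ethanol-fed control and 150 to 263 in Mettl3 livers. Sinusoidal endothelial markers were called lower in 7 of 9, with Lyve1 called higher. Both marker counts stand beside 26.0% called lower over all genes tested. T and NK cell markers summed to no more than 3.98 FPKM in any liver. In bulk liver, fewer cells of a type and less RNA per cell cannot be told apart, and the part of these markers in the result was not tested.

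Several members were high in the pair-fed livers alone, and are given as values because their Mettl3 livers did not all reach 5 FPKM. Gm2788 had 21.5, 21.3 and 25.2 FPKM in the 3 pair-fed livers, then 2.11, 1.18 and 3.92 in the ethanol-fed controls and 3.06, 3.83 and 1.12 in Mettl3 livers. Gm36419 had 17.15, 22.8 and 22.7, then 4.37, 1.56 and 2.05, then 1.17, 1.69 and 4.63 FPKM. Tbx3os1 had 6.68, 8.05 and 6.24 FPKM in the pair-fed livers, and between 0.185 and 0.944 in the other 6. In all of these the pair-fed livers stood clear of both ethanol-fed groups. Log2 fold changes of Gm41999 (-2.32), Gm36041 (-2.07), 0610031O16Rik (-1.95), Gm5524 (-1.85) and Gm46635 (-1.75) were of like size, and none of these was tested.

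**Figure D2:**
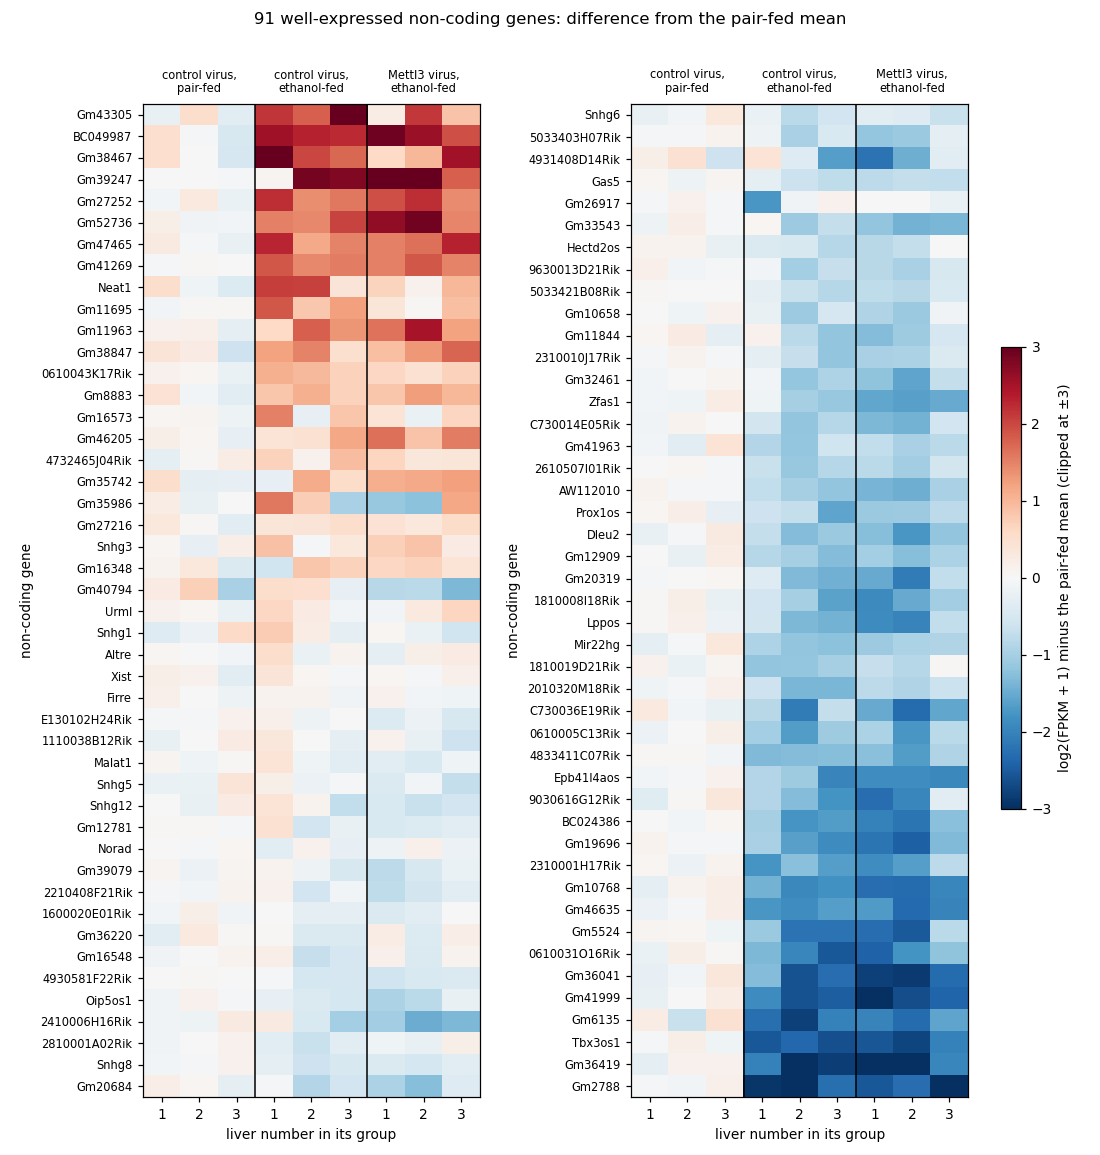
Difference of each member from its mean in the pair-fed livers, in log2(FPKM + 1) units, with 1 row per gene, 1 column per liver and rows ordered by the mean difference of the ethanol-fed control livers. Red rows at the top include BC049987 and Gm41269, blue rows at the bottom include Gm2788 and Gm6135, and Gm26917 shows 1 dark blue cell, that of ethanol-fed control liver 1.

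Fewer members rose. BC049987, a clone-named gene at chr9:44670568-44672260, had 1.42, 0.656 and 0.228 FPKM when pair-fed, against 8.88, 7.48 and 6.97 in ethanol-fed control livers. The groups stood apart, with a log2 fold change of 2.36 ± 0.23 on the log2(FPKM + 1) scale, which understates changes of low genes (adjusted p = 0.0011). The Mettl3 livers had 11.9, 9.17 and 5.53 FPKM.

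Gm41269, a predicted gene on chromosome 15, was close to level within each group. It had 1.88, 2.08 and 2.02 FPKM when pair-fed, 9.92, 7.07 and 7.74 in ethanol-fed control livers and 7.60, 9.87 and 7.42 in Mettl3 livers. Its log2 fold change with ethanol was 1.62 ± 0.13 (adjusted p = 0.00065, the smallest of any member tested). Both ethanol-fed groups lay above every pair-fed liver.

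Gm47465 rose from 1.41 ± 0.42 FPKM (SD, n = 3) to 6.87 ± 3.34, a log2 fold change of 1.64 (adjusted p = 0.006). 0610043K17Rik rose by 0.92 on that scale (adjusted p = 0.0038) and Gm46205 by 0.67 (adjusted p = 0.047). Gm8883, the most abundant member called higher, went from 32.3, 22.2 and 18.6 FPKM to 43.1, 51.0 and 38.7 (log2 fold change 0.86 ± 0.20, adjusted p = 0.016). Gm8883 and Gm46205 lost their calls when single livers were left out, among them pair-fed livers 2 and 3, with adjusted p up to 0.154 for Gm46205. The other 4 members called higher kept their calls. Gm27216 rose from a mean of 24.9 to 33.3 FPKM without overlap but was not called (log2 fold change 0.43, limma adjusted p = 0.079).

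The promoter of BC049987 is shown as the region from which the RNA with the highest tested rise is transcribed. RefSeq (GRCm38.p6) gives the following 300 bases on the minus strand, of which the last 50 lie from the annotated start on; capitals mark the motif matches.
BC049987 promoter, chr9:44672211-44672510: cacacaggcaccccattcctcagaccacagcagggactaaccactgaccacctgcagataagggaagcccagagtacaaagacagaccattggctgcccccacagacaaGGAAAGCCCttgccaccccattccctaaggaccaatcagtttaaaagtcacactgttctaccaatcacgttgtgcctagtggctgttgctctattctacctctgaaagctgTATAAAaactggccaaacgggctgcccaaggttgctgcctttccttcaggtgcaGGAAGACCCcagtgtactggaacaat
It holds a TATA box (TATAAA) beginning at base -30 and 2 matches to GGGNNTTCC, a form of the NF-kB site, on the reverse strand. Of 27025 genes with a promoter in the table, 15.7% hold TATAAA and 6.58% hold GGGNNTTCC on either strand; among the 72 members with a promoter there these shares were 18.1% and 5.56%. The HNF4 core CAAAGTCCA was found in 0.555% of all genes and 1.39% of members, and the E-box CACGTG in 8.09% and 11.1%. The C/EBP palindrome TTGCGCAA, the C/EBP-ATF site TGATGCAA, the CRE TGACGTCA, the STAT site TTCCNGGAA and the D-box TTATGTAA were each found in 1 or 2 members. A match to these letters is a description of the window and not evidence of binding.

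Other members were high in ethanol-fed livers but not tested. Gm43305 had 0.43, 1.41 and 0.351 FPKM when pair-fed, against 6.36, 4.78 and 41.6 in ethanol-fed control livers, with ethanol-fed liver 3 far above the others; without it the log2 fold change was 1.97 in place of 2.87. Gm27252, which overlaps Klf13 on the other strand, had 0.561 to 1.19 FPKM and then 3.74 to 7.35, and Gm52736 had 0.456 to 0.776 and then 3.29 to 5.35. Gm39247 had 0.0354, 0.0359 and 0 FPKM in the 3 pair-fed livers, then 0.0766, 6.45 and 6.07 in the ethanol-fed controls and 9.82, 20.3 and 2.58 in Mettl3 livers. Ethanol-fed liver 1 thus resembled the pair-fed livers for Gm39247. The gene lies 4038 bases from Hp, the haptoglobin gene, on the same strand, and Hp had 1571 ± 333 FPKM (SD, n = 3) in pair-fed livers, 5793 ± 2333 in ethanol-fed control livers and 7789 ± 1682 in Mettl3 livers.

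Nuclear architectural RNAs behaved unlike one another. Malat1, which concentrates in nuclear speckles, had 43.2, 37.6 and 42.3 FPKM when pair-fed, 54.5, 37.6 and 32.8 in ethanol-fed control livers and 32.8, 29.5 and 37.5 in Mettl3 livers. The groups overlapped under ethanol with control virus (log2 fold change -0.01 ± 0.18, adjusted p = 0.97). Under median-ratio scaling its sign turned, to 0.17, and it was not called there either.

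Neat1, the RNA scaffold of paraspeckles, is transcribed next to Malat1 at chr19:5824708-5845480. It had 6.32, 3.65 and 2.81 FPKM in the 3 pair-fed livers, then 20.4, 19.9 and 5.59 in the ethanol-fed controls and 7.07, 4.52 and 9.03 in Mettl3 livers. Ethanol-fed livers 1 and 2 stood far above the rest, while liver 3 fell within the pair-fed range. The log2 fold changes were 1.502 ± 0.469 for ethanol and -0.91 ± 0.47 for the Mettl3 virus under ethanol, without a test, because the third group did not reach 5 FPKM in all its livers in either case. Frmd8, a coding gene 4222 bases away on the same strand, was also highest in ethanol-fed livers 1 and 2, with 4.79, 4.93 and 3.72 FPKM, then 17.1, 13.6 and 9.78, then 6.05, 7.00 and 8.85. Frmd8 was called higher with ethanol (log2 fold change 1.38 ± 0.20, adjusted p = 0.0031). Reads that run past the end of a gene cannot be told apart from its neighbour's here. Among 19 paraspeckle and speckle proteins tested, 3 rose with ethanol (Pspc1 by 1.27, Srsf3 by 0.78 and Rbm14 by 0.48 on the log2 scale) and 5 fell, among them Srrm2 (-0.61), Hnrnph3 (-0.58) and Nono (-0.38). Over all genes tested, 10.0% were called higher and 26.0% lower with ethanol.

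Xist, which coats the inactive X chromosome in female cells, had 41.9 to 59.1 FPKM in pair-fed livers, 49.8 to 69.1 in ethanol-fed control livers and 50.7 to 58.4 in Mettl3 livers, with overlap throughout (log2 fold change with ethanol 0.13 ± 0.17, adjusted p = 0.59). The Y-linked gene Ddx3y did not exceed 0.0223 FPKM in any liver. Firre, another X-linked nuclear RNA, had 5.22 to 6.69 FPKM over all 9 livers (log2 fold change with ethanol 0.03, adjusted p = 0.83). Norad, a cytoplasmic RNA that binds Pumilio proteins, had 17.6 to 24.9 FPKM (log2 fold change -0.14, adjusted p = 0.43; 0.04 under median-ratio scaling). H19, Meg3 and Kcnq1ot1 did not reach the FPKM rule. Of 6 imprinted genes tested, 3 fell with ethanol, namely Cdkn1c (-0.53), Peg3 (-0.42) and Gnas (-0.38), beside 26.0% called lower over all genes tested.

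**Figure D3:**
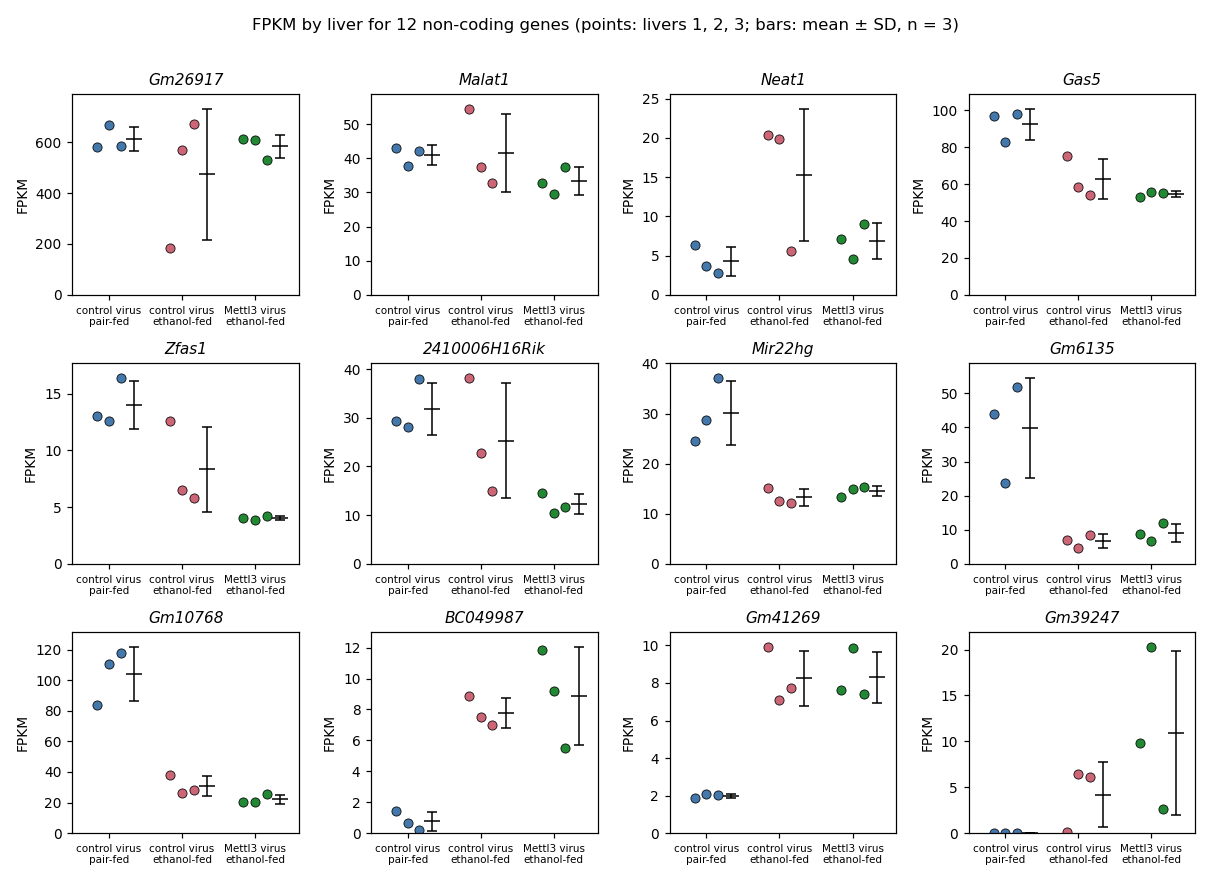
FPKM of 12 members in each liver (points, livers 1 to 3 from left to right within each group) with the mean and SD of 3 livers (bars); each vertical axis has its own scale. Gm6135, Gm10768 and Mir22hg separate the pair-fed livers from both ethanol-fed groups, Neat1 is high in 2 of 3 ethanol-fed control livers, and Zfas1 and 2410006H16Rik are lowest in the Mettl3 livers.

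Genes that carry snoRNAs in their introns are transcribed strongly and often start at a run of pyrimidines, the 5′ TOP element shared with ribosomal protein mRNAs. Start windows of 30 bases, 10 before the annotated start and 20 from it on, are shown for 10 members. These members hold an annotated snoRNA gene inside their span and were found in RefSeq's promoter table (GRCm38.p6). The windows are shown because the start is the feature snoRNA hosts are known to share. Whether each snoRNA gene lies in an intron or on the same strand was not checked. Capitals mark a C within 3 bases of the start followed by at least 4 pyrimidines.
Gas5, chr1:161035156-161035185, plus strand: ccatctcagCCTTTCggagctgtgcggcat
Snhg8, chr3:123508317-123508346, minus strand: gttcagaagtCTCTTTggctgcgatccgcc
Snhg12, chr4:132308668-132308697, plus strand: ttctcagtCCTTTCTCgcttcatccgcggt
Snhg3, chr4:132353667-132353696, minus strand: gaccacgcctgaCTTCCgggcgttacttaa
Gm36220, chr11:106500905-106500934, plus strand: ccattccggCCTCTTatcgacggggactgc
1110038B12Rik, chr17:34952449-34952478, minus strand: gcacacgggtCTCTTTgtgcacccgcccac
Snhg1, chr19:8723477-8723506, plus strand: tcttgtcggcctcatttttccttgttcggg
Snhg5, chr9:88522878-88522907, minus strand: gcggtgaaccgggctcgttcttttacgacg
Zfas1, chr2:167062924-167062953, plus strand: tgcgccccgggcggccgcaggtctcggctg
2410006H16Rik, chr11:62602867-62602896, plus strand: cgccgtctttctctgcggccatcatgggat
Such a run was found in 6 of these 10 members (60%), in 10 of 62 other members with a promoter (16.1%) and in 3651 of 27025 genes (13.5%). Where RefSeq lists more than 1 start, as for Gas5 and 1110038B12Rik, the start with the longest run is shown.

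Of 6 named snoRNA hosts tested with ethanol, 2 were called lower, none higher and 4 were not called. Differences between hosts were not tested. Gas5, whose introns hold box C/D snoRNAs, fell from 96.8, 82.8 and 97.7 FPKM to 75.2, 58.7 and 54.4 with ethanol (log2 fold change -0.56 ± 0.14, adjusted p = 0.021), and the groups did not overlap. Leaving out pair-fed liver 1 or 3, or ethanol-fed liver 2 or 3, ended the call, with adjusted p between 0.0599 and 0.0804. Snhg8 fell from 14.0, 14.6 and 16.4 FPKM to 12.1, 9.40 and 10.51 (log2 fold change -0.46 ± 0.12, adjusted p = 0.022). Its call was lost without pair-fed liver 2 or 3, or ethanol-fed liver 2 or 3 (limma adjusted p between 0.0545 and 0.092). Median-ratio scaling ended it too.

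The 4 other hosts tested were not called: Snhg6 at -0.52, Snhg12 at -0.07 (0.10 under median-ratio scaling), Snhg1 at 0.24 and Snhg3 at 0.38 on the log2 scale. Snhg6 was called lower without ethanol-fed liver 1 (adjusted p = 0.0172). Epb41l4aos (-1.31), Zfas1 (-0.75) and Snhg5 (-0.02, and 0.14 under median-ratio scaling) are given as values. The Rik and Gm genes that contain snoRNA genes were not called either: 2410006H16Rik, around Snord49a, Snord49b and Snord65, had -0.40, Gm36220, around Snord104, -0.28, and 1110038B12Rik, around Snord52, 0.01. Without ethanol-fed liver 1, 2410006H16Rik was called lower (log2 fold change -0.74, adjusted p = 0.0209).

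Among 20 tested snoRNA host genes that were no members, 7 were called lower with ethanol and 2 higher (Snhg15 at 0.54 and Eif4a1 at 0.42), the falls including those of coding hosts such as Eif4a2 (-0.91), Rpl13a (-0.39) and Tpt1 (-0.37). Of 18 tested proteins that bind or process snoRNAs, 3 rose and 2 fell. Nop58, a core box C/D protein, rose by 1.44 and Dkc1, the box H/ACA pseudouridine synthase, fell by 0.81 on the log2 scale. Among 15 factors of nonsense-mediated decay, the pathway that degrades many spliced host transcripts, 3 were called lower, led by Smg6 (-0.58), and none higher. Of 18 nuclear exosome genes, 3 rose and 4 fell. The counts of these lists stand beside 26.0% called lower and 10.0% called higher over all genes tested.

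The microRNA host genes differed. Mir22hg, host of miR-22, fell from 24.5, 28.7 and 37.1 FPKM in pair-fed livers to 15.1, 12.6 and 12.1 in ethanol-fed control livers, and was 13.4, 15.0 and 15.3 in Mettl3 livers. Its log2 fold change with ethanol was -1.11 ± 0.16 (adjusted p = 0.0035), and both ethanol-fed groups lay below every pair-fed liver. Tlcd2 overlaps it on the same strand, starting 176 bases away, and was not called (-0.17, adjusted p = 0.34). The 2 genes have 165 bases of shared exon, and reads from those bases cannot be told apart.

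Dleu2, host of the miR-15a and miR-16 pair with the shared AGCAGCA seed, had 6.61, 7.67 and 9.69 FPKM when pair-fed, 4.41, 2.61 and 3.09 in ethanol-fed control livers and 2.66, 1.67 and 2.89 in Mettl3 livers, without overlap between pair-fed and other livers and without a test. E130102H24Rik, around miR-101a, was not called with ethanol, with 9.19 to 10.7 FPKM in pair-fed and 8.68 to 10.95 in ethanol-fed control livers (log2 fold change 0.01 ± 0.12, adjusted p = 0.95). 0610043K17Rik, which starts on the other strand within it, is the gene called higher above. Among 10 microRNA processing genes tested, Ago1 (-1.02), Prkra (-0.65) and Dgcr8 (-0.35) fell with ethanol and Xpo5 (0.45) rose. The background over all genes tested was 26.0% lower and 10.0% higher.

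Coding genes that overlap a member or lie within 5 kb gave 59 pairs for 56 members, and 42 pairs had a log2 fold change for both. The change with ethanol had the same sign in 30 of the 42, and Pearson's r across pairs was 0.54. It was 0.436 over 21 opposite-strand overlaps and 0.37 over 10 opposite-strand genes within 5 kb. The median log2 fold change was -0.51 over members and -0.14 over all genes, and sign agreement in unrelated pairs was not computed. The pairs share libraries and, where exons overlap, possibly reads, so these values are a description. In some pairs both values were lower. E2f8, an atypical E2F repressor whose start lies 296 bases from that of Gm2788 and which shares 336 exon bases with it, fell with ethanol (log2 fold change -1.66 ± 0.16, adjusted p = 0.001). Tbx3, a T-box factor gene whose start lies 839 bases from that of Tbx3os1, fell by 0.83 (adjusted p = 0.0051) and shares 115 exon bases. Car3, the carbonic anhydrase 3 gene which Gm41999 overlaps, fell by 0.84 (adjusted p = 0.013).

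Other pairs differed. Gm38467 had 2.90, 1.71 and 0.925 FPKM when pair-fed, against 22.8, 9.91 and 8.07 in ethanol-fed control livers, a log2 fold change of 2.28. Pygl, the liver glycogen phosphorylase gene on the same strand, had 169, 165 and 165 FPKM and then 195, 163 and 131 (log2 fold change -0.05 ± 0.14, adjusted p = 0.82). The annotated starts of Gm38467 and Pygl lie 22 bases apart. In the sequence below (RefSeq, GRCm38.p6, minus strand), capitals run from the start of Gm38467 to that of Pygl.
Gm38467 promoter, chr12:70231461-70231760: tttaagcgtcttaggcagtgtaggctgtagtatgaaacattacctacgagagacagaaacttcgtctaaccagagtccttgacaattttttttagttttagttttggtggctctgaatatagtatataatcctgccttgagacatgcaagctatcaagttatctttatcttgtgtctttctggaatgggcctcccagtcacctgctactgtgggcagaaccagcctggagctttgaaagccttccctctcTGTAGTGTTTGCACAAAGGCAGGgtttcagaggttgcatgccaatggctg
Gm27252 (1.73) lies within Klf13, which was called lower (-0.66, adjusted p = 0.02). 0610031O16Rik (-1.95) overlaps Adh7, the class IV alcohol dehydrogenase gene, which had a mean of 0.983 FPKM in pair-fed and 1.81 in ethanol-fed control livers (0.49, adjusted p = 0.025). Lppos (-1.11) starts 148 bases from Lpp, which was not called (-0.08, adjusted p = 0.55).

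**Figure D4:**
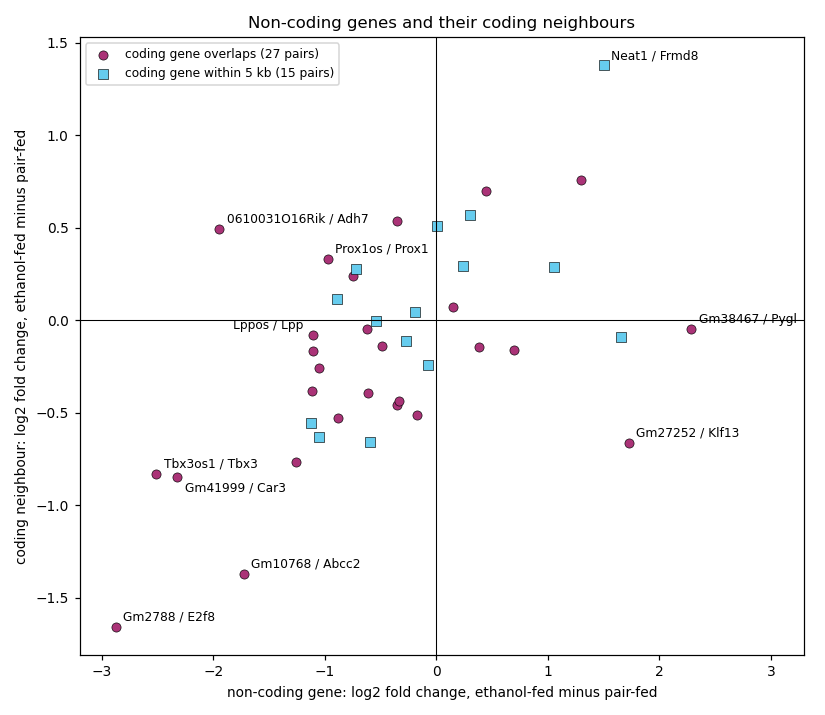
Log2 fold change with ethanol of each non-coding gene (horizontal axis) against that of its coding neighbour (vertical axis), for 42 pairs with both values; circles are overlapping genes and squares genes within 5 kb. Of the 42 pairs 30 have the same sign, with Gm2788 / E2f8 and Neat1 / Frmd8 at the ends and Gm38467 / Pygl and Gm27252 / Klf13 among the pairs of opposite sign.

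The second comparison set the Mettl3 virus against the control virus in ethanol-fed livers. Here 70 members could be tested, since they reached 5 FPKM in all 3 pair-fed livers; Tbx3os1 also did, but fell below the FPKM minimum of this fit. None was called by limma (lowest adjusted p = 0.641), while 7 had an unadjusted p under 0.05. Over all 9706 genes tested 1 was called higher (0.0103%), Mettl3 itself, and 0 lower. The median log2 fold change was -0.14 over the tested members and -0.04 over all genes.

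Of the 70 tested members, 2 (2.86%) had Mettl3 livers that all lay higher and 5 (7.14%) had Mettl3 livers that all lay lower, beside 6.17% and 6.62% over all genes tested. Zfas1, host of the Snord12 snoRNAs, had 12.6, 6.51 and 5.83 FPKM in ethanol-fed control livers and 4.05, 3.83 and 4.26 in Mettl3 livers (log2 fold change -0.81 ± 0.25, adjusted p = 0.64). 2410006H16Rik had 38.2, 22.8 and 15.0 FPKM and then 14.6, 10.51 and 11.8 (-0.90 ± 0.31, adjusted p = 0.64). In both genes the Mettl3 livers lay below every control liver, and ethanol-fed liver 1 was the highest.

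Gm10768 (-0.45), Gm33543 (-0.75), E130102H24Rik (-0.37) and the untested Gm40794 (-1.26) were the other members whose Mettl3 livers all lay lower, and 1810019D21Rik (0.61) and 2810001A02Rik (0.39) those whose Mettl3 livers all lay higher. Gm40794 had 10.9, 10.6 and 5.90 FPKM in ethanol-fed control and 3.58, 3.69 and 2.24 in Mettl3 livers.

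The third comparison, Mettl3 ethanol-fed against control pair-fed livers, differs in both virus and diet and shares the pair-fed livers with the first, so the 2 are not independent. Of 47 members testable here, 20 were called lower (42.6%) and 5 higher (10.6%), beside 34.9% and 13.9% over all genes tested. Among 4782 coding genes held to the same 2 level rules these shares were 33.9% lower and 17.2% higher. Median-ratio scaling moved the median of all genes by 0.22 and changed the calls over all genes from 1424 higher and 3572 lower to 2587 higher and 2212 lower, and those of members to 9 higher and 16 lower, with 21 of the 25 calls in common. The 5 called higher with total-read scaling were BC049987 (2.48), Gm41269 (1.63), Gm8883 (1.02), 0610043K17Rik (0.59) and Gm27216 (0.43). Whichever single liver of the 2 compared groups was left out, 14 of the 20 lower and 4 of the 5 higher calls remained. Gm27216 kept its call in only 1 of those 6 fits.

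Zfas1 was called lower in this comparison (log2 fold change -1.56 ± 0.23, adjusted p = 0.0014), beside an untested -0.75 for ethanol with control virus. 2410006H16Rik was called lower at -1.30 ± 0.29 (adjusted p = 0.0061), beside -0.40 for ethanol with control virus. Gas5 stood at -0.74 beside -0.56, Mir22hg at -0.98 beside -1.11 and Snhg8 at -0.43 beside -0.46. 1810019D21Rik was not called here (-0.50, adjusted p = 0.079), with Mettl3 liver 3 at 16.3 FPKM within the pair-fed range; without that liver it was -0.77 (adjusted p = 0.00166).

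Over these members, the livers of each ethanol-fed group differed among themselves more than the pair-fed livers did. Over the 91 genes, the median SD of log2(FPKM + 1) within a group was 0.18 in pair-fed, 0.42 in ethanol-fed control and 0.32 in Mettl3 livers. The highest liver exceeded the lowest by more than 2-fold in 11, 43 and 25 members, in that order. These spreads are a description with no test, since the same livers chose the members. In 29 members the pair-fed group alone reached 5 FPKM in all of its livers. Ethanol-fed liver 1 was the highest of its group in 69 of 91 members (75.8%), beside 59.1% of coding genes that met the same FPKM rule. That rule sets a minimum and does not match members and coding genes by level. Mettl3 liver 3 was the highest of its group in 59 members (64.8%), beside 59.3% of coding genes.

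Measured from the pair-fed mean, the median member stood at -0.13, -0.62 and -0.56 in ethanol-fed control livers 1, 2 and 3 and at -0.78, -0.81 and -0.43 in the Mettl3 livers, in log2(FPKM + 1). Coding genes that met the same FPKM rule stood at -0.06, -0.17 and -0.24 and at -0.24, -0.25 and -0.10. Ethanol-fed liver 1 and Mettl3 liver 3 were thus nearest to the pair-fed livers in their groups, for non-coding as for coding genes. These medians, and the correlations that follow, are a description, since 24 of the members met the rule only with the help of pair-fed livers. Pearson's r between libraries over the 91 genes was 0.9699 to 0.983 within the pair-fed group, 0.830 to 0.899 within the ethanol-fed control group and 0.859 to 0.957 within the Mettl3 group. Neutrophil markers differed between livers too, with summed FPKM of 7.46 to 11.6 in pair-fed, 9.32 to 74.0 in ethanol-fed control and 49.0 to 105 in Mettl3 livers, and their part in these differences was not tested.

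**Figure D5:**
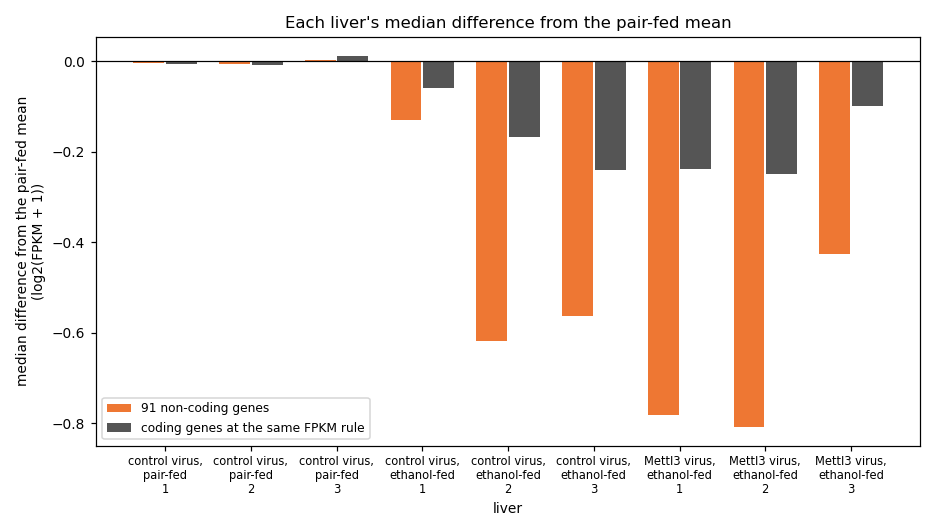
Median difference from the pair-fed mean in log2(FPKM + 1) for each of the 9 livers, for the 91 non-coding genes and for coding genes that met the same FPKM rule (bars). Ethanol-fed control liver 1 (-0.13) and Mettl3 liver 3 (-0.43) are the nearest to zero in their groups.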

How the data were processed

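Total RNA from 9 livers was sequenced and processed by the authors with fastp, HISAT2 and HTSeq on mm10, per the submitters' processing notes; versions, annotation release and strand setting are not given in the sources used here. The deposited values used are FPKM per gene and library, in 2 tables of 6 libraries that share the ethanol-fed control livers. The authors' deposited tables also hold normalized means (a signal, by DESeq2 size factors per the file headers), a linear fold change, its log2 value, and a p-value and q-value per gene; of these, the means were used to recover reads and the others are not reported.

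Tables were joined on gene symbol (16842 and 16470 genes, 16266 shared). Whole reads were recovered from FPKM steps and the deposited means for 100% of values, within 0.05 of a whole number. Genes with 1 FPKM in at least 3 libraries of a fit were tested as log2(FPKM + 1) with limma 3.58.1 (trend and robust, R 4.3.3) and Benjamini-Hochberg adjustment. The fit was also run on simulated data, but the size of change it could detect is not given here. Each table was fitted on its 6 libraries, and the third comparison on all 9. Shares of reads are given without the planned exact permutation test, because the members were chosen on the same libraries. Members were placed by Entrez number in RefSeq GRCm38.p6 (88), by symbol in GENCODE M21 (2) or not at all (1).

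The members and gene lists were chosen with earlier results of these data known. Genes named singly are the known long non-coding RNAs and every Snhg member, the 10 most abundant, the 10 largest changes without group overlap per comparison and direction, the 5 smallest p per direction under the Mettl3 virus, microRNA hosts, and genes at the edge of the rule; every gene called with ethanol, genes holding snoRNAs or microRNAs, Firre and Oip5os1 were added after their values were seen. Alternatives were another pseudocount, no FPKM minimum, median-ratio scaling, voom on the recovered reads, no trend or robust fit, other libraries in the fit, a replicate block and each library left out. The voom fit used median-ratio factors in place of the planned TMM factors.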

Additional observations from a re-analysis of the deposited data

How the results depend on the processing

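The counts of members called higher or lower with ethanol stayed within 1.5 times their values under every alternative except single livers left out, where lower calls ranged from 11 to 21 and higher calls from 4 to 6. For Mettl3 ethanol-fed against pair-fed livers, 5 members were called higher, but 9 with median-ratio scaling and 8 with voom on the recovered reads; the lower calls ranged from 15 to 22 with single livers left out. No member was called between the viruses under any alternative. Of the calls with ethanol, 9 of 17 lower and 4 of 6 higher remained whichever liver was left out. The rule itself sets the list: 2 FPKM gives 189 genes, 10 FPKM gives 47 and 5 FPKM in all 9 libraries gives 36. The share of reads on members differed by 0.0223 percentage points between the viruses and by -0.0412 without Gm26917. The labels do not say whether replicate numbers pair the livers. Correlations of same-numbered deviations ran from -0.412 to 0.394, and those of different-numbered deviations from -0.513 to 0.58. With 3 livers per group these values cannot decide it. With the number as a block, 5 members were called higher and 15 lower with ethanol, 0 between the viruses, and 4 higher and 21 lower for Mettl3 ethanol-fed against pair-fed livers. Median-ratio scaling and voom turned the sign of Malat1, Norad, Snhg12 and Snhg5 with ethanol, of Xist and Gm5524 between the viruses, and of Gm26917, Norad, Snhg1 and 2810001A02Rik for Mettl3 ethanol-fed against pair-fed livers; none of these was called. Few reads limit the precision of the lowest members, such as Gm39247 with 0 reads in pair-fed liver 3.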
